A study of Mus musculus with 4 samples.

Results

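Mouse bone marrow-derived macrophages labelled wild type (WT) were compared after 12 h and 24 h of interleukin-4 (IL-4). All genes of the deposited table with a level of at least 5 CPM (the count scaled by the library's total, a measure of relative abundance) in at least 1 of these 2 libraries were described. This rule took 9326 of 14936 genes, and these held 99.5% of the counts in each library. Of them, 9043 reached 5 CPM in both libraries, 164 at 12 h alone and 119 at 24 h alone. Just inside the rule were Kptn, at 5.004 CPM at 12 h and 4.04 CPM at 24 h, and Zfp442, at 5.004 and 2.40 CPM, and just outside it were Smyd4 and Atad5, with 4.98 CPM at 12 h. Each time had 1 library, so no difference could be tested, and every statement below is a description of 2 libraries.

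The series holds 4 libraries, 1 each for cells labelled WT and cells labelled Phlpp1-deficient (KO) at 12 h and at 24 h. In every group the cells had been grown from bone marrow with M-CSF at 20 ng/ml and then received IL-4 at 20 ng/ml, so an untreated library or an earlier time is not part of the comparison. The labels do not say whether libraries came from separate animals or cultures, nor how Phlpp1 was removed. The WT-labelled libraries held 41770309 counts at 12 h and 37155457 at 24 h, the KO-labelled ones 39864159 and 36707999. Phlpp1, which encodes a phosphatase acting on the kinase AKT, was measured at 11.7 CPM at 12 h and 15.2 CPM at 24 h under the WT label, and at 43.9 and 63.6 CPM under the KO label. That order goes against the labels, so each library is named by its label only. Its relative Phlpp2 ranged from 9.62 to 11.3 CPM over all 4 libraries. Of 20 macrophage marker genes 19 passed the rule, among them Csf1r, the M-CSF receptor gene, at 2060 and 2123 CPM, and Cd68, at 2135 and 2155 CPM, in the WT-labelled libraries.

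IL-4 binds its receptor on macrophages and activates the transcription factor STAT6, which turns on a programme known as alternative activation, with secreted resistin-like and chitinase-like proteins, arginase and lectin receptors. Interferons act through other STAT factors and the IRF factors, which bind a response element in front of antiviral genes. MHC class II molecules present peptides from engulfed material to T cells, and in macrophages both interferon-gamma and IL-4 can raise them.

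The promoters of 6 genes are shown first, because interferon-response genes and genes of the MHC class II chains differed in opposite directions between the libraries and Retnla is the classical product of IL-4 activation. They were chosen after the values had been seen. The sequences are the 250 bases before the annotated start, from RefSeq on GRCm38.p6, written 5′ to 3′ on the gene's strand. For Ifit3 (chr19:34583279-34583528, plus strand), Ifit1 (chr19:34640639-34640888, plus strand) and Rsad2 (chr12:26456453-26456702, minus strand), which encode antiviral effectors, capitals mark matches to the interferon-stimulated response element, searched as TTTCNNTTTC on both strands.
Ifit3: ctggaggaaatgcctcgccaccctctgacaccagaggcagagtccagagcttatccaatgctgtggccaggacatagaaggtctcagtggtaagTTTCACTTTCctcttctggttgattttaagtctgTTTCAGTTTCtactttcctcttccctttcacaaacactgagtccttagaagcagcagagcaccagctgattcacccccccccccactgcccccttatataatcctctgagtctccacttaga
Ifit1: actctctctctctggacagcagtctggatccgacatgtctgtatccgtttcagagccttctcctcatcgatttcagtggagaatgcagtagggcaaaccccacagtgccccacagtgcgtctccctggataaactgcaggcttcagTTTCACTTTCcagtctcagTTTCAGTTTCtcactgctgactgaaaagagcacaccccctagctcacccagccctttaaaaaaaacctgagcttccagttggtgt
Rsad2: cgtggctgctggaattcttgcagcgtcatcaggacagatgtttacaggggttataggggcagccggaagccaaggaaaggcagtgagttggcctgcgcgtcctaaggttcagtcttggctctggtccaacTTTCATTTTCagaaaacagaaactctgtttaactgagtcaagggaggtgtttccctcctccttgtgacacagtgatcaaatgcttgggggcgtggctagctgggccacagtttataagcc
These genes all stood lower at 24 h. The windows of Ifit2 and Irf7 held no match to these letters.

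For H2-Aa (chr17:34287824-34288073, minus strand) and H2-Eb1 (chr17:34305617-34305866, plus strand), which encode chains of MHC class II molecules, capitals mark the CCAAT box, searched as CCAAT on both strands.
H2-Aa: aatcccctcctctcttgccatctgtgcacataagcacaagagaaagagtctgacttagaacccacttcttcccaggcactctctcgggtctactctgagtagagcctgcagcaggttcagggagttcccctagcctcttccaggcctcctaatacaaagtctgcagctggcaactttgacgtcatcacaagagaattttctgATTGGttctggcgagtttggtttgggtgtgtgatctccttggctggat
H2-Eb1: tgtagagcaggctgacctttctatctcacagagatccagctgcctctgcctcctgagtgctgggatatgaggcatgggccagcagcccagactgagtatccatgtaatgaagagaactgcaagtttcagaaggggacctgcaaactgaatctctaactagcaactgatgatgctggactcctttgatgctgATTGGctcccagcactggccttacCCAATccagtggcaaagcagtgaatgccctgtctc
Both genes stood higher at 24 h. In Retnla (chr16:48842359-48842608, plus strand), which encodes a resistin-like secreted protein, capitals mark a match to the spaced palindrome TTCNNNNGAA, the form of element that STAT6 binds.
Retnla: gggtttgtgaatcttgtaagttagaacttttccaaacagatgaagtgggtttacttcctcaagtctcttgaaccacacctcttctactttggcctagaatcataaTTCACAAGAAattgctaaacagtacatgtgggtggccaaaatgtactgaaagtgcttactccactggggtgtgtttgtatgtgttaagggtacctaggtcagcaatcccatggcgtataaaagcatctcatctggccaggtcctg
Retnla stood higher at 24 h as well. The windows of Rnase2a, Ear2, Siglecf and Ptgs1 held no match to this palindrome.

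Promoter windows for shares ran from 250 bases before to 50 bases after the start and were found for 7619 of the 9326 genes. The interferon-stimulated element was present in 303 of them, or 3.98%. It was present in 22 of 37 promoters from the interferon lists described below (59.5%), in 13 of 48 promoters of genes at least 1.5-fold lower at 24 h (27.1%) and in 2 of 20 of genes at least 1.5-fold higher. The STAT6-type palindrome was found in 6.48% of all windows, in 7 of the 48 (14.6%) and in 2 of the 20 (10.0%). CCAAT was found in 42.3% of all windows and in 4 of 7 from the MHC class II list. A match is a description of letters and says nothing about binding.

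Levels at 24 h were close to those at 12 h for most genes. The ratio used throughout is the log2 of (CPM at 24 h + 1) over (CPM at 12 h + 1). Its median over the 9326 genes was -0.02, with quartiles of -0.12 and 0.07, an SD across genes of 0.18, and a range from -1.13 to 1.70. Of all genes, 92.9% lay within 1.25-fold and 99.1% within 1.5-fold in either direction. The 1799 genes of at least 100 CPM in both libraries lay between -0.66 and 0.58. In all, 3.68% of the scaled counts would have to be reassigned between genes to turn one library into the other, beside 4.52% in the KO-labelled libraries.

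Under rules of size, which are not tests, 3 genes were at least 2-fold higher at 24 h (0.0322% of the genes) and 3 at least 2-fold lower (0.0322%). At 1.5-fold there were 26 higher (0.279%) and 60 lower (0.643%), and at 1.25-fold 211 higher (2.26%) and 452 lower (4.85%). The excess of lower genes shrank under other scalings. At 1.5-fold there were 35 higher and 49 lower under median-of-ratios scaling, as also with each ratio taken relative to genes of like GC content, and 48 and 64 without the 20 most abundant genes. At 1.25-fold the ratios relative to genes of like GC content gave 262 higher and 344 lower. Genes past 1.5-fold were mostly of low level: 19 of the 26 and 38 of the 60 stayed under 20 CPM in both libraries, as did 30.7% of all genes. A gene under 5 CPM in 1 library passed the rule only through the other, which favours a ratio in that direction. Rnase2a, Scd1, Arg2, Rbp4, Smad6, Ccn1, Dcstamp, Pitpnm2, Atrnl1 and Ppp1r13l passed so through 24 h alone. Lyzl4 and Dach1 are examples among the lower genes, through 12 h alone. Folds of single genes below are without the added 1 and carry exact 95% intervals from the 2 counts. Those intervals cover counting error only and compare the libraries, not the times. The interval left out 1 for 4453 of 9326 genes, 1752 above it and 2701 below. The ratios of the other genes were within counting error. The median width of the interval, from end to end, was 0.22 on the log2 scale, beside an SD of the ratios across genes of 0.18. The spread between cultures is unknown. Base composition moved with the ratio: with genes in 4 equal groups by the GC content of their longest transcript, the median was -0.07 in the group lowest in GC and -0.02, -0.00 and -0.01 in the others. That group held 29 of the 59 lower genes with a GC value. Its part in the results was not tested.

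**Figure D1:**
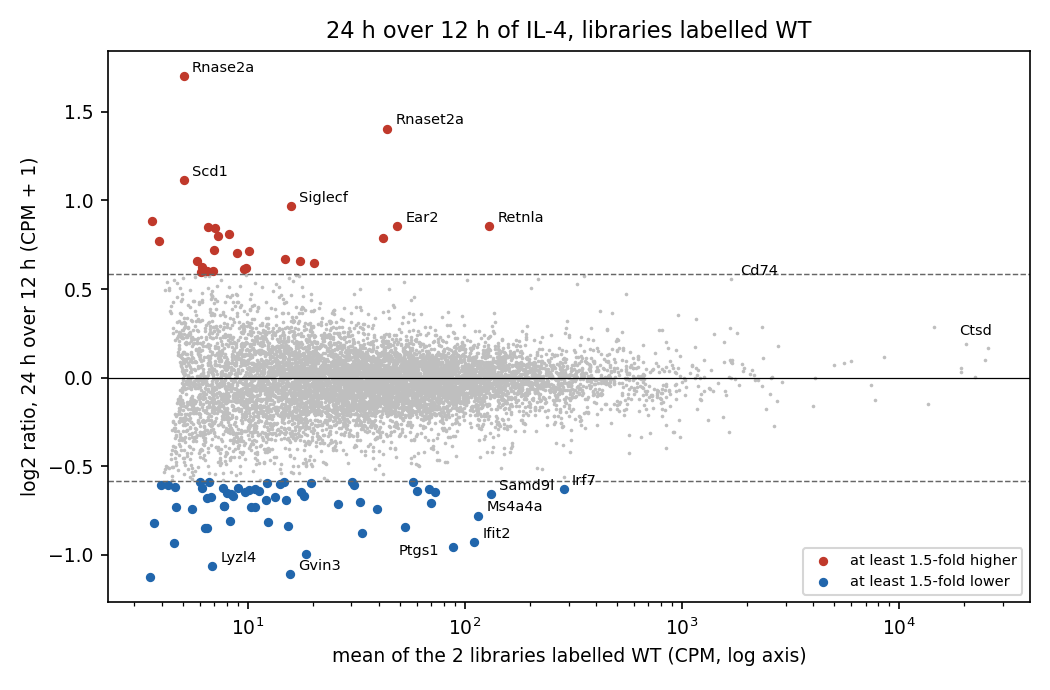
Each point is 1 of the 9326 genes, with the mean of the 2 libraries labelled WT in CPM on a log axis and the log2 ratio of 24 h over 12 h on the other; dashed lines mark 1.5-fold. The 26 red and 60 blue points are those past 1.5-fold, most of them at the left, and genes of at least 100 CPM in both libraries stay between -0.66 and 0.58.

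The plot of the ratio against level shows a narrow band around 0 that widens only at low levels, with few abundant genes outside the dashed lines. Rnase2a had the largest ratio of all, and passed the rule through the 24 h library alone. It encodes an eosinophil-associated ribonuclease of mouse and had 77 counts at 12 h and 307 at 24 h, or 1.84 and 8.26 CPM, a 4.48-fold difference (3.48 to 5.83). Siglecf, a sialic acid-binding receptor known from eosinophils and alveolar macrophages, stood at 10.4 and 21.3 CPM, 2.05-fold higher at 24 h (1.82 to 2.31). Ear2, of the same ribonuclease family as Rnase2a, stood at 34.5 and 63.2 CPM, 1.83-fold higher (1.72 to 1.96). All were higher at 24 h in the KO-labelled libraries too, at 4.74 and 38.9 CPM for Rnase2a, 11.6 and 25.7 CPM for Siglecf and 39.8 and 81.3 CPM for Ear2. The copies of this ribonuclease family are alike in sequence, so the split of reads between Rnase2a and Ear2 is uncertain. Of 11 mast cell, basophil and eosinophil markers in the table, 2 passed 5 CPM and 3 stayed under 1 CPM in both libraries. Their summed level was 36.0 CPM at 12 h and 46.5 CPM at 24 h, and Siglecf was the member past 1.5-fold.

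Genes of alternative activation as a whole were centred near 0, with secreted products and receptors on both sides of it. Of 47 IL-4 response genes, 4 were at least 1.5-fold higher and 3 at least 1.5-fold lower, beside 0.279% and 0.643% of all genes. Among the higher ones, Rnase2a and Dcstamp passed the rule through the 24 h library alone, which favours a higher ratio. The list's median was 0.01 beside -0.02 for all genes. The 12 secreted and matrix genes had a median of 0.16, with 5 past 1.25-fold higher and 2 past it lower, beside 2.26% and 4.85% of all genes. Retnla stood at 91.9 CPM at 12 h and 167 CPM at 24 h, 1.82-fold higher (1.75 to 1.90). Chil3, which encodes a chitinase-like lectin, stood at 1024 and 1290 CPM, 1.26-fold higher (1.24 to 1.28). Ccl22, a chemokine that attracts T cells bearing CCR4, stood at 7.68 and 12.0 CPM, with a ratio of 0.58. Arg1, the arginase of alternative activation, stood at 26.1 and 28.1 CPM, and Igf1, a growth factor gene, at 1077 and 1095 CPM. Arg1 and Igf1 were thus near one level at both times while Retnla and Ear2 were not.

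Ptgs1, which encodes cyclooxygenase-1 and makes the precursor of prostaglandins, was the list's lowest. It stood at 116 CPM at 12 h and 59.5 CPM at 24 h, 1.95-fold lower (1.86 to 2.06), and at 150 and 75.8 CPM in the KO-labelled libraries. The inducible form Ptgs2 had a ratio of 0.50, at 5.27 and 7.89 CPM, so the ratios of the cyclooxygenase genes had opposite signs. F13a1, a clotting factor subunit, stood at 26.6 and 18.8 CPM (ratio -0.48).

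Receptor genes of the IL-4 list went both ways, with 5 of 20 past 1.25-fold lower and 2 past it higher, beside 4.85% and 2.26% of all genes. Their median was -0.03, beside -0.02 for all genes. Flt1, a receptor for VEGF, stood at 49.6 and 29.2 CPM, 1.70-fold lower at 24 h (1.57 to 1.83). Clec10a, a lectin that binds galactose, stood at 14.99 and 9.58 CPM, 1.56-fold lower (1.37 to 1.79). Scavenger receptor gene Msr1 stood at 342 and 232 CPM (ratio -0.56), mannose receptor gene Mrc1 at 1021 and 824 CPM (-0.31) and Clec7a, the beta-glucan receptor Dectin-1, at 1815 and 1469 CPM (-0.30). On the other side were Dcstamp, needed for the fusion of macrophages, at 4.31 and 7.37 CPM, 1.71-fold higher (1.41 to 2.08), and the integrin gene Itgax at 415 and 534 CPM (0.36). Dcstamp passed the rule through the 24 h library alone. Of the 15 transcription factor and feedback genes, none passed 1.25-fold in either direction, Stat6 standing at 271 and 286 CPM and Pparg at 168 and 169 CPM. Of all genes, 92.9% likewise lay within 1.25-fold. These 15 genes were thus near one level at both times, as most genes were, and none of them lay beyond -0.07 to 0.25.

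**Figure D2:**
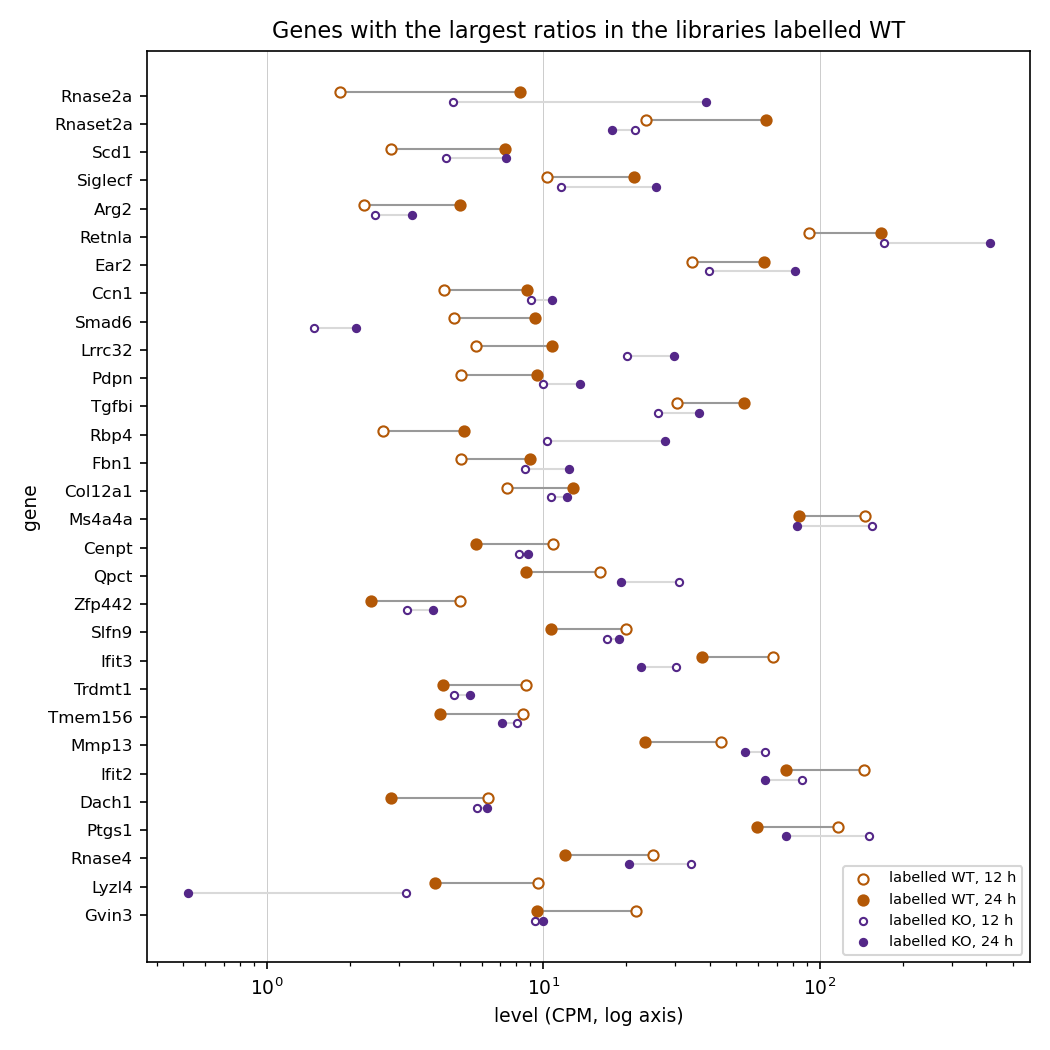
For the 15 named genes with the largest and the 15 with the smallest ratio, open circles give the level at 12 h and filled circles that at 24 h, in CPM on a log axis, with 1 library per circle. Orange is labelled WT and purple labelled KO, and Rnase2a, Siglecf, Retnla and Ear2 move the same way in both pairs while Rnaset2a does not.

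Interferon-response genes stood lower at 24 h. Of 37 type I interferon genes, 34 had a ratio below 0, 22 were at least 1.25-fold lower and 6 at least 1.5-fold lower, with none past 1.25-fold higher. The median was -0.40, beside -0.02 for all genes, where 4.85% were at least 1.25-fold lower. The 23 effector genes were all below 0, with a median of -0.42 and 18 past 1.25-fold. Ifit2, which binds viral RNA, stood at 145 CPM at 12 h and 75.5 CPM at 24 h, 1.92-fold lower (1.83 to 2.01). Ifit3, its partner in the same complex, stood at 68.0 and 37.5 CPM, 1.81-fold lower (1.70 to 1.93), and Ifit1, which binds RNA caps, at 41.1 and 24.9 CPM, 1.65-fold lower (1.53 to 1.79). Rsad2, which makes a chain-terminating nucleotide, stood at 83.1 and 53.4 CPM (ratio -0.63). Counts of Ifit3 are uncertain, since it has a near copy beside it.

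Among 14 sensors and factors of the list the median was -0.22. Irf7, the factor that amplifies interferon production, stood at 346 and 223 CPM, 1.55-fold lower (1.51 to 1.59). Zbp1, a sensor of Z-form nucleic acid, stood at 73.6 and 46.9 CPM (ratio -0.64), and the RIG-I relative gene Dhx58 at 69.9 and 49.4 CPM (-0.49). Tethering factor gene Bst2 was among the effectors, at 266 and 185 CPM (-0.52), as was the ubiquitin-like modifier gene Isg15 at 33.8 and 23.9 CPM (-0.48). Irf7 shares a short stretch of exon with Phrf1 on the other strand, and the use of strand in counting is not given.

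The 13 interferon-gamma inducible GTPase genes, whose products attack the vacuoles of intracellular microbes, were all below 0. Of them, 10 were at least 1.25-fold and 4 at least 1.5-fold lower, beside 4.85% and 0.643% of all genes, with a median of -0.42. Gbp3 stood at 22.5 CPM at 12 h and 13.8 CPM at 24 h, 1.63-fold lower (1.47 to 1.82), Gbp7 at 14.0 and 8.59 CPM and Gvin1, a very large GTPase gene, at 13.8 and 7.89 CPM. Abundant members differed less, with Irgm1 at 144 and 120 CPM (ratio -0.26) and Irgm2 at 70.2 and 57.9 CPM (-0.27). Gvin3, a copy of Gvin1 outside the list, stood at 21.6 and 9.47 CPM, 2.28-fold lower (2.02 to 2.59), beside 9.38 and 10.0 CPM in the KO-labelled libraries. Copies of these families are near identical, and Gbp9 shares exon bases with Gbp4 and Gbp8, so values within the family are uncertain while the direction is common to its members.

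Schlafen genes, a family that includes interferon-inducible members, were below 0 for all 6, with a median of -0.41. Of them 5 were past 1.25-fold lower, beside 4.85% of all genes. Slfn9 stood at 19.9 and 10.7 CPM, 1.86-fold lower (1.65 to 2.10), and the abundant Slfn5 at 349 and 261 CPM (ratio -0.42). Slfn5 is counted in the type I interferon list too, so these sets are not separate. Samd9l, an antiviral factor gene of the kind that interferon induces, was not in a list. It stood at 162 and 102 CPM, 1.58-fold lower (1.52 to 1.65), the lowest ratio among genes of at least 100 CPM in both libraries. Ifi27l2a, an interferon-inducible gene, likewise outside the lists, stood at 87.0 and 52.8 CPM (-0.71), beside 103 and 60.0 CPM in the KO-labelled libraries.

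The medians of the interferon lists were nearer 0 in the KO-labelled libraries, though not for every gene. The type I list had a median of -0.17 there, with 30 of 37 below 0 and 11 at least 1.25-fold lower, where 6.38% of 9406 genes were so lower and 4.95% so higher. The GTPases had a median of -0.25 with 12 of 13 below 0 and the Schlafen genes a median of -0.05. Of the 37 type I genes 11 had the lower ratio in the KO-labelled pair, as did 2 of the 13 GTPases and 0 of the 6 Schlafen genes. Irf7 was among these, at 237 and 138 CPM (ratio -0.77). At 12 h the KO-labelled libraries held less Ifit2 and Ifit3 than the WT-labelled pair, at 86.6 and 30.3 CPM against 145 and 68.0 CPM, and at 24 h they held 63.3 and 22.7 CPM against 75.5 and 37.5 CPM. The difference between the pairs was not tested, since each has 1 library per time.

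MHC class II genes stood higher at 24 h. Of 12 presentation genes 5 were at least 1.25-fold higher and 1 at least 1.25-fold lower, beside 2.26% and 4.85% of all genes, with a median of 0.14. Cd74, the invariant chain that guides class II molecules, stood at 1364 CPM at 12 h and 2009 CPM at 24 h, 1.47-fold higher (1.46 to 1.49). H2-Aa stood at 284 and 424 CPM, 1.49-fold higher (1.46 to 1.53). H2-Eb1 stood at 176 and 260 CPM and H2-Ab1 at 269 and 388 CPM, so the chain genes were higher by similar factors. Ciita, the coactivator that these genes need, stood at 21.5 and 28.2 CPM (ratio 0.38). The loading genes differed less and in opposite directions, H2-DMa standing at 59.8 and 50.01 CPM (ratio -0.25) and H2-DMb1 at 53.7 and 60.4 CPM (0.17). Costimulatory gene Cd86 was the exception on the lower side, at 13.9 and 8.96 CPM (-0.58). In the KO-labelled libraries the chain genes were higher at 24 h by more, at 261 and 496 CPM for H2-Aa and 1060 and 2229 CPM for Cd74. Dendritic cell markers were mostly absent, with 7 of 11 under 1 CPM in both libraries labelled WT and a summed level of 84.3 CPM at 12 h and 74.6 CPM at 24 h.

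MHC class I presentation leaned the other way. Of 19 genes 16 were below 0, as were 56.7% of all genes, and 4 were at least 1.25-fold lower, beside 4.85%. The median was -0.26. Psmb9, a subunit of the immunoproteasome, stood at 40.6 and 30.8 CPM (ratio -0.39), and Tapbpl, a peptide editor, at 43.6 and 34.2 CPM (-0.34). The most abundant genes were near or above 0, with H2-D1 at 5795 and 6179 CPM, B2m, the shared light chain, at 4871 and 5113 CPM and H2-K1 at 2599 and 2610 CPM. The class I list is known to respond to interferon, and its direction was that of the interferon lists while the 3 abundant chain genes stood apart. Whether interferon had a part in these values was not tested.

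**Figure D3:**
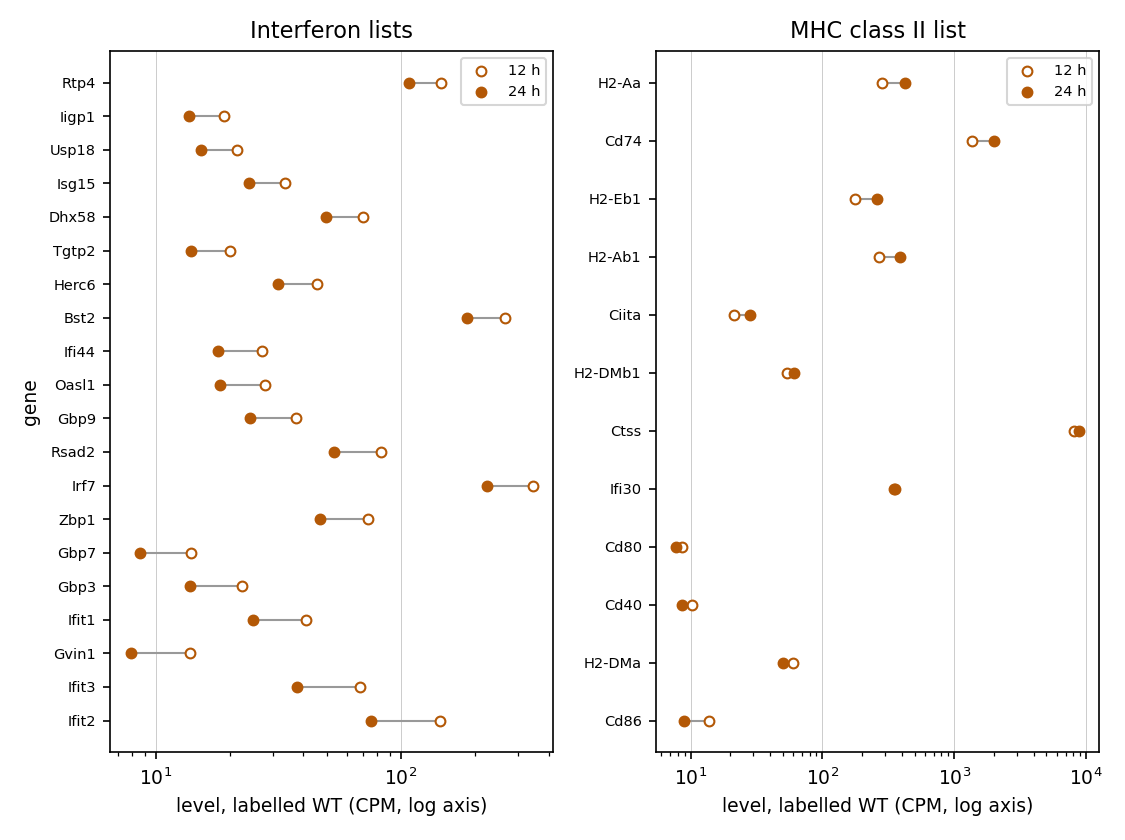
Left, the 20 genes with the smallest ratio among the type I interferon and GTPase lists, and right, the 12 genes of the MHC class II list, with the level in the WT-labelled libraries in CPM on a log axis (open, 12 h; filled, 24 h; 1 library each). Filled circles lie left of open ones for the interferon genes, and right of them for the class II chain genes and Ciita.

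Genes of TGF-beta signalling leaned higher, while matrix genes went both ways. Of 16 TGF-beta and ID genes, 15 were above 0, 4 at least 1.25-fold and 2 at least 1.5-fold higher, beside 2.26% and 0.279% of all genes, with a median of 0.14. Smad6, an inhibitor of BMP signalling, stood at 4.76 CPM at 12 h and 9.37 CPM at 24 h, 1.97-fold higher (1.65 to 2.35), and Lrrc32, which holds latent TGF-beta on the cell surface, at 5.70 and 10.7 CPM, 1.88-fold higher (1.60 to 2.22). Id3, an inhibitor of helix-loop-helix factors, stood at 36.7 and 52.3 CPM (ratio 0.50) and Smad7, an inhibitor of TGF-beta receptors, at 3.998 and 5.92 CPM (0.47). Tgfb1 itself stood at 566 and 576 CPM. Smad6 and Smad7 were under 5 CPM at 12 h and passed the rule through the 24 h library alone, which favours a higher ratio. Both are among the genes counted here as at least 1.25-fold higher.

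Of 41 matrix and fusion genes, 9 were at least 1.25-fold higher and 4 at least 1.25-fold lower, beside 2.26% and 4.85% of all genes. Their median was -0.00, and 0.02 under the other scalings. Dcstamp, counted among the 9, passed the rule through the 24 h library alone. Tgfbi, a secreted matrix protein gene named for its induction by TGF-beta, stood at 30.5 and 53.5 CPM, 1.75-fold higher (1.63 to 1.88). The protease inhibitor gene Timp1, at 6.51 and 11.3 CPM, stood higher, while the protease genes Mmp13, at 43.9 and 23.4 CPM, and Plau, at 172 and 121 CPM, stood lower. Mmp13, a collagenase, was 1.88-fold lower (1.73 to 2.04). Genes outside these lists with large ratios were Ccn1, a matrix-associated signalling protein gene, at 4.38 and 8.72 CPM, Pdpn, a surface glycoprotein gene, at 5.03 and 9.47 CPM, and Col12a1, a collagen gene, at 7.42 and 12.8 CPM.

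Markers of stromal cells stood higher as well in the WT-labelled libraries. Of 11 that passed 5 CPM, 9 were above 0, with a median of 0.27. Of them 4 were at least 1.25-fold higher and none past it lower, beside 2.26% and 4.85% of all genes. In the KO-labelled pair the same genes had a median of 0.04, with 6 above 0 and 5 below. Fbn1, which encodes fibrillin, stood at 5.05 and 8.96 CPM, Dcn, a proteoglycan gene, at 8.79 and 11.8 CPM and Bgn, another, at 30.2 and 37.5 CPM. The summed level of the 17 markers in the table was 143 CPM at 12 h and 171 CPM at 24 h. In bulk RNA more cells of a type and more RNA per cell cannot be told apart, and the part of stromal cells in the matrix and TGF-beta values was not tested.

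Granulocyte genes stood lower. Of 14 neutrophil and precursor markers past 5 CPM, 8 were at least 1.25-fold and 3 at least 1.5-fold lower, beside 4.85% and 0.643% of all genes, with a median of -0.36. Mpo, which encodes myeloperoxidase, stood at 32.6 CPM at 12 h and 19.5 CPM at 24 h, 1.67-fold lower (1.53 to 1.83), Ms4a3, a marker of granulocyte precursors, at 8.19 and 4.74 CPM, and Elane, neutrophil elastase, at 12.0 and 7.32 CPM. Ms4a3 passed the rule through the 12 h library alone, which favours a lower ratio, and is counted among the MS4A genes below too. S100a9, a calcium-binding protein gene, stood at 344 and 269 CPM, whereas the granule gene Ngp stood at 334 and 361 CPM. The summed level of the 17 markers was 1193 CPM at 12 h and 1087 CPM at 24 h, and Ly6g, the defining surface marker of mature neutrophils, had no count in either library, which allows up to 0.0718 and 0.0807 CPM. The KO-labelled libraries showed 954 and 838 CPM in sum.

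MS4A genes, which encode 4-pass membrane proteins of myeloid cells, were below 0 for all 8 members, with a median of -0.46. Of them 7 were past 1.25-fold and 3 past 1.5-fold lower, beside 4.85% and 0.643% of all genes. These 3 include Ms4a3, which is counted among the granulocyte genes too and passed the rule through the 12 h library alone. Ms4a4a stood at 145 and 84.4 CPM, 1.72-fold lower (1.65 to 1.80), Ms4a4c at 9.91 and 5.598 CPM and the abundant Ms4a7 at 653 and 485 CPM (ratio -0.43). Their median in the KO-labelled libraries was -0.54, with Ms4a4a at 155 and 82.6 CPM. Among the lists and families with at least 5 genes, this one had the lowest median in both pairs. Its members are low in GC, with a median of 42.5% beside 49.4% for all genes, and with each ratio taken relative to its GC group the family's median was -0.39.

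**Figure D4:**
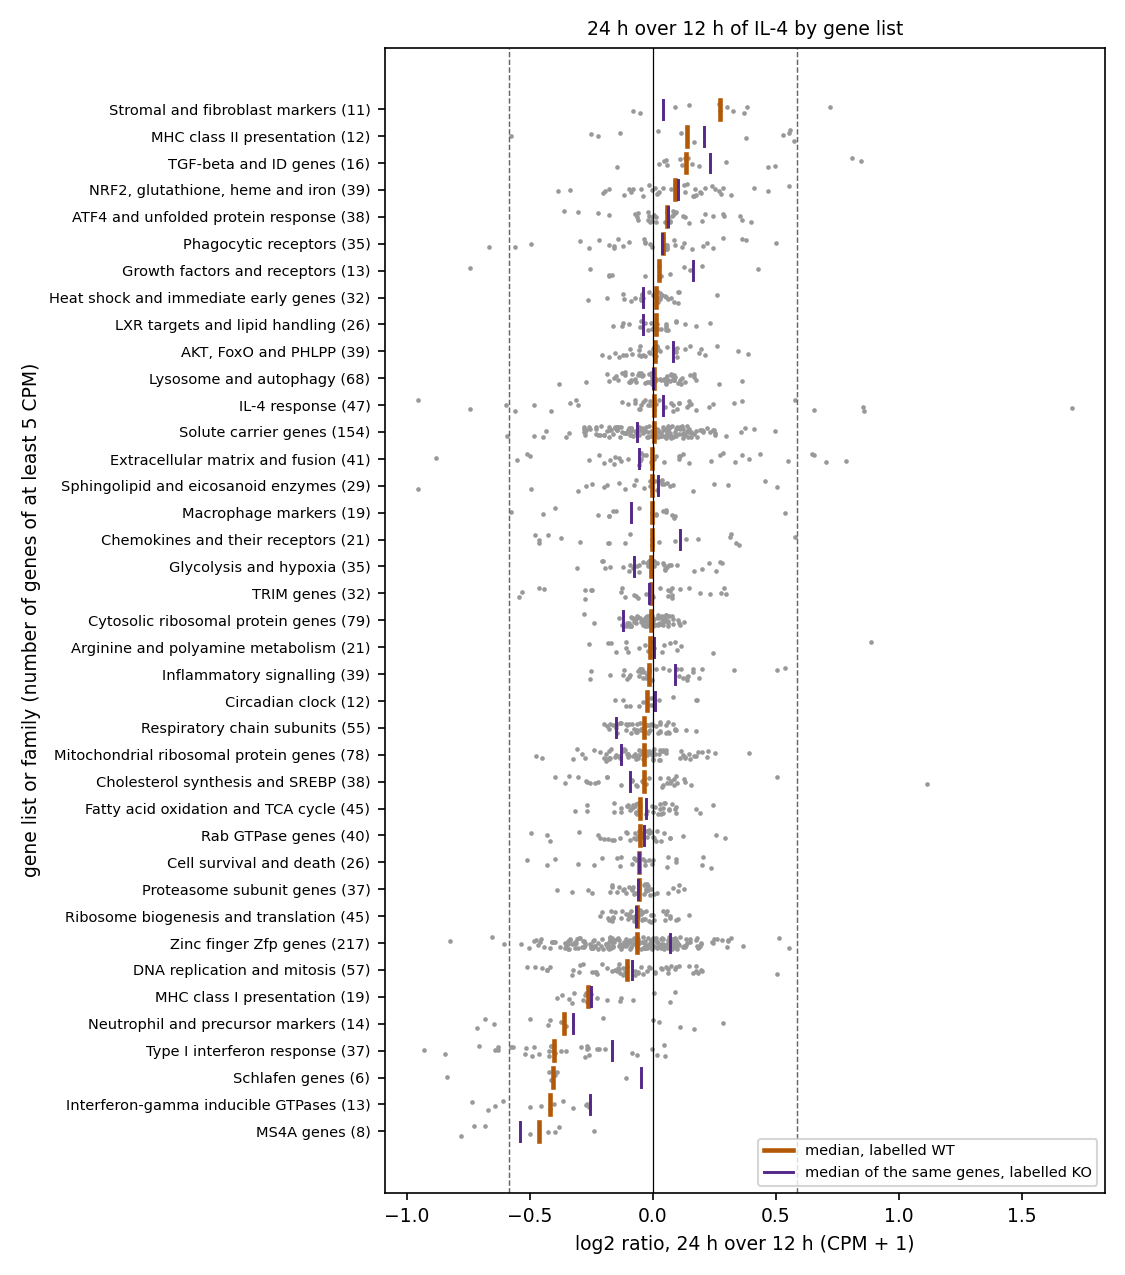
Each row is a gene list or family with at least 5 genes in the comparison (number in brackets); grey points are single genes, orange bars the median log2 ratio in the WT-labelled libraries and purple bars the median of the same genes in the KO-labelled pair. The MS4A, GTPase, Schlafen, type I interferon, neutrophil and MHC class I rows lie left of 0 at medians of -0.46 to -0.26, and most other rows are centred within 0.1 of 0.

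Genes of metabolism and housekeeping made up most of the rows centred at 0 in the plot of gene lists. None of the 45 fatty acid oxidation and TCA cycle genes, 55 respiratory chain genes, 35 glycolysis and hypoxia genes, 79 cytosolic ribosomal protein genes, 32 heat shock and immediate early genes, 26 LXR and lipid handling genes or 12 clock genes passed 1.25-fold in either direction. Of all genes, 92.9% likewise lay within 1.25-fold, so the smaller of these lists were near that share. Gpnmb, an abundant lysosome-associated glycoprotein gene, stood at 22291 CPM at 12 h and 22345 CPM at 24 h, a fold of 1.002 (0.999 to 1.01). Scd1, a desaturase that makes monounsaturated fatty acids, was an exception among 38 genes of sterol and fatty acid synthesis, at 2.82 and 7.29 CPM, 2.58-fold higher (2.07 to 3.23). The 21 sterol enzymes had a median of -0.19, with 15 below 0, as were 56.7% of all genes. Beside 4.85% of all genes, 3 of the 21 were at least 1.25-fold lower, such as Mvk, mevalonate kinase, at 10.4 and 7.67 CPM. Arg2, the mitochondrial arginase, was the only 1 of 21 arginine and polyamine genes past 1.25-fold, at 2.25 and 5.01 CPM from 94 and 186 counts, and it overlaps an exon of Vti1b on the other strand.

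Antioxidant genes leaned higher, and iron genes went both ways. Of 21 NRF2 and glutathione genes 16 were above 0, with 3 at least 1.25-fold higher, beside 2.26% of all genes, and a median of 0.16. The 18 heme and iron genes had a median of 0.02, with 10 above 0, none at least 1.25-fold higher and 2 at least 1.25-fold lower. Gclm, a subunit of the enzyme that starts glutathione synthesis, stood at 83.0 and 122 CPM (ratio 0.55), heme oxygenase gene Hmox1 at 729 and 880 CPM (0.27) and the cystine transporter gene Slc7a11 at 39.7 and 53.2 CPM (0.41). Ferritin genes Ftl1, at 12977 and 15841 CPM, and Fth1, at 19014 and 21721 CPM, gained the most CPM after Ctsd, a lysosomal protease gene at 24145 and 27118 CPM. Transferrin receptor gene Tfrc stood on the other side, at 1087 and 862 CPM (-0.33), so the genes for iron storage and iron uptake differed in opposite directions. Other large gains were those of Psap, the precursor of lysosomal activators, at 23976 and 25721 CPM, and Lrp1, an endocytic receptor gene, at 2097 and 2559 CPM. The largest losses were those of Lyz2, lysozyme, at 14303 and 12907 CPM, Eef1a1, an elongation factor gene, at 8042 and 7379 CPM, and Actb, at 2900 and 2402 CPM.

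Of 21 endoplasmic reticulum stress genes, 18 were above 0, as were 4036 of all 9326 genes, with a median of 0.12. The chaperone gene Calr stood at 839 and 1073 CPM (ratio 0.35) and Hspa5 at 468 and 543 CPM (0.21). Of 57 cell cycle genes 38 (66.7%) were below 0, as were 56.7% of all genes, and 8 were at least 1.25-fold lower and 1 higher, beside 4.85% and 2.26%. Their median was -0.11, and -0.05 under TMM scaling. Mki67, a proliferation marker, stood at 39.6 and 29.4 CPM and the cyclin gene Ccnd1 at 48.1 and 35.5 CPM. Inhibitors of the cycle split, with Cdkn1a, which encodes p21, at 251 and 176 CPM and Cdkn1c, which encodes p57, at 167 and 237 CPM.

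Inflammatory genes showed 3 of 39 at least 1.25-fold higher and none past it lower, beside 2.26% and 4.85% of all genes. Their median was -0.02, as was that of all genes. Cd14, a coreceptor for lipopolysaccharide, stood at 42.5 and 62.2 CPM (ratio 0.54) and Tlr2 at 23.6 and 30.0 CPM (0.33). Outside this list, the lectin gene Clec4e, which senses mycobacterial lipid, stood at 27.1 and 38.8 CPM (0.50) beside its partner Clec4d at 362 and 471 CPM (0.38). Chemokine genes went both ways, with 3 of 21 at least 1.25-fold higher and 5 lower, beside 2.26% and 4.85% of all genes. Receptors Ccr1, at 86.6 and 62.5 CPM, and Ccr2, which draws monocytes into tissue, at 26.1 and 18.5 CPM, stood lower, while the ligand gene Cxcl16, at 85.2 and 109 CPM, stood higher.

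Further genes with large ratios belong to no list. Rnaset2a, a lysosomal ribonuclease gene with a near-identical copy, stood at 23.5 CPM at 12 h and 63.9 CPM at 24 h, 2.72-fold higher (2.52 to 2.93), beside 21.4 and 17.8 CPM in the KO-labelled libraries. Lyzl4, a lysozyme-like gene, stood at 9.58 and 4.06 CPM, 2.36-fold lower (1.95 to 2.86), and was lower at 24 h also in the KO-labelled libraries, at 3.19 and 0.518 CPM. Gm12185, an unnamed gene model sharing exon bases with Tgtp1, stood at 5.24 and 1.86 CPM. Rnase4, of the ribonuclease A family, stood at 24.9 and 12.0 CPM, 2.08-fold lower (1.86 to 2.33), and shares exon bases with Ang on the same strand. Rbm3, a cold-inducible RNA-binding protein gene, stood at 89.4 and 56.7 CPM, 1.58-fold lower (1.49 to 1.66), and at 80.4 and 52.1 CPM in the KO-labelled libraries.

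The KO-labelled libraries give a second pair from 12 h to 24 h that shares no library with the first. Over the 9326 genes the ratios of the pairs had a Pearson r of 0.28 and a Spearman rho of 0.21, given as a description across genes that share length and base composition and are not independent. Of the 26 genes at least 1.5-fold higher in the WT-labelled libraries, 22 (84.6%) were above 0 in the KO-labelled pair, as were 45.9% of all genes, and 8 were past 1.5-fold there. Of the 60 lower genes, 43 (71.7%) were below 0 in the other pair, as were 54.1% of all genes, and 14 were past 1.5-fold. Ppp1r9a, a scaffold of the actin cytoskeleton, was the single gene past 1.5-fold in opposite directions. It stood at 5.36 and 3.18 CPM in the WT-labelled libraries and at 1.91 and 3.38 CPM in the KO-labelled pair. It passed the rule through the WT-labelled 12 h library alone, which favours a lower ratio. In the KO-labelled pair it stayed below 5 CPM at both times. Under the same rule of 5 CPM the KO-labelled libraries held 65 of 9406 genes at least 1.5-fold higher (0.691%) and 89 lower (0.946%).

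**Figure D5:**
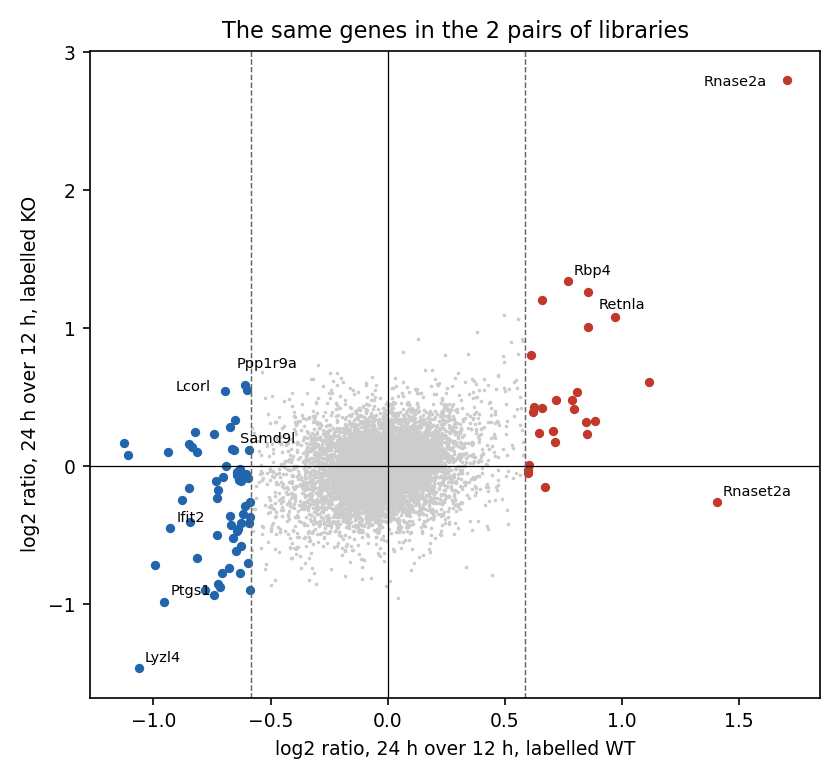
Each point is 1 of the 9326 genes, with its log2 ratio of 24 h over 12 h in the WT-labelled libraries on the horizontal axis and in the KO-labelled pair on the vertical axis; dashed lines mark 1.5-fold in the WT-labelled libraries. Of the 26 red points 22 lie above 0 on the vertical axis, and of the 60 blue points 43 lie below it.

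The plot of the ratios of both pairs shows Rnase2a, Retnla and Rbp4, a retinol carrier gene at 2.63 and 5.19 CPM, high in both, and Ptgs1 and Lyzl4 low in both. Zinc finger genes of the Zfp kind had medians of opposite sign in the pairs. In the WT-labelled libraries 141 of 217 (65.0%) were below 0, as were 56.7% of all genes. Their median there was -0.07, beside -0.02 for all genes, and -0.04 under TMM scaling, beside -0.00177. In the KO-labelled pair 78 of them were below 0, as were 54.1% of all genes, with a median of 0.07. These genes are low in GC, with a median of 44.4%. The group of genes lowest in GC likewise had a median of -0.07 in the WT-labelled libraries and 0.07 in the KO-labelled pair, while the group highest in GC had medians of -0.01 and -0.11. The part of base composition in this difference was not tested.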

How the data were processed

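Messenger RNA libraries of 4 groups with 1 library each were compared by sample label. A single table from the authors lists, per symbol and library, raw counts and FPKM. HISAT2, StringTie 1.3.0, edgeR and mm10 are named per the submitters' processing notes; the sources used here do not give their roles, the counting tool or its use of strand. FPKM, as deposited, served only to check the counts. Columns of sample values left unused numbered 0.

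CPM was the count over the library's column total. Ratios added 1 CPM to each side, which understates low genes. Intervals were exact (Clopper-Pearson, 95%), and a count of 0 allows up to 3 counts. The reads carried no molecular identifiers, so both cover counting error only. TMM factors came from edgeR 4.0.16 in R 4.3.3 as an alternative. Other steps used Python 3.11.15, and the ratio step was checked on simulated data. With 1 library per group no p-value was computed. Positions came from GENCODE M21 (GRCm38) and promoters from RefSeq (GRCm38.p6).

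The 34 lists, 9 families and the rules were chosen with earlier results of these data known. Of 1109 listed symbols, 1094 were in the table and 900 in the comparison. The naming rule took, leaving out unnamed gene models, the 15 largest and 15 smallest ratios, the 8 largest gains and losses in CPM, up to 3 genes per list past 1.5-fold in each direction with its 2 most abundant genes, Phlpp1 and Phlpp2, and genes past 1.5-fold in opposite directions in the WT-labelled and KO-labelled libraries. Other genes were named after their values were seen, as was the 1.25-fold rule. Markers of lymphocytes and of erythroid cells and megakaryocytes summed to 60.2 and 49.7 CPM and to 94.4 and 108 CPM at 12 h and 24 h, and no count of Hbb-bs was found. Alternatives were other scalings, added values, minimum levels and a centring by GC.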

Additional observations from a re-analysis of the deposited data

Results flagged for a closer look

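For 7 genes the libraries labelled WT and those labelled KO gave ratios of opposite sign that were far apart. With 1 library per group and time, the difference between the pairs was not tested for any of them. Rnaset2a had a log2 ratio of 24 h over 12 h of 1.41 in the libraries labelled WT and -0.26 in those labelled KO, and reads may be split with its near-identical copy. Lcorl, a transcriptional corepressor gene that overlaps Ncapg on the other strand, had ratios of -0.69 and 0.55. Ppp1r9a had ratios of -0.61 and 0.59, and Samd9l -0.66 and 0.12. Ppp1r9a passed the 5 CPM rule through the WT-labelled 12 h library alone and stayed below 5 CPM in both KO-labelled libraries. The zinc finger genes gave -0.67 and 0.29 for Zbtb41, -0.65 and 0.33 for Zfp157, and -0.60 and 0.56 for Zfp729b.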

How the results depend on the processing

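All results rest on 1 library per time. No named gene past 1.5-fold changed sign under another scaling or added value, but the median of all genes did, and so did the medians of 9 of 43 lists and families under other scalings, which by column totals lay within 0.016 of 0. The median ratio was -0.00177 under TMM, 0.000506 under median-of-ratios scaling, -0.00565 without the 20 most abundant genes, -0.024 and -0.0205 with 0.1 or 5 CPM added, -0.0208 with a minimum of 20 CPM and -0.0215 with none. Genes at least 2-fold higher numbered 5 without the 20 genes, 5 and 1 with 0.1 and 5 CPM added, and 7, 1 and 7 with minimums of 1 CPM, 20 CPM and none; those 2-fold lower numbered 6, 0, 7, 1 and 7 under the last 5 of these. At 1.5-fold, higher genes numbered 48 without the 20 genes, 42 and 7 with 0.1 and 5 CPM added, and 91, 7 and 102 with those minimums; lower genes numbered 64 without the 20 genes, 90 and 19 with 0.1 and 5 CPM added and 131, 22 and 144 with those minimums. The 1.25-fold rule gave 211 and 452. Of 47 named genes past 1.5-fold, 20 were so with 5 CPM added. Median-of-ratios scaling and GC centring each gave 35 higher and 49 lower. Under TMM 33 genes were 1.5-fold higher, the 26 among them, and 50 of the 60 lower. Fewer or more genes enter as the minimum moves, and added CPM shrinks low genes; the cause of other shifts was not tested. No paired analysis was possible because each group holds 1 library.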
